A study of Sus scrofa with 9 samples.

Results

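The 5 genes NR4A1, EGR1, ATF3, MYC and BTG2 were followed in cultured granulosa cells of the pig ovary. They were chosen by symbol, as genes known for fast induction by hormones, growth factors and stress, and they make up 5 of the 1081 rows of the expression table. All 5 passed the filter on low values, which kept 919 genes. Granulosa cells are the somatic cells around the oocyte. RNA was sequenced from wild-type primary granulosa cells in 3 groups of 3 libraries. The control group received neither agent, as far as its label says. The sulforaphane group received sulforaphane, an isothiocyanate from cruciferous vegetables that is known to activate the transcription factor NRF2. The FSH group received follicle-stimulating hormone, which acts on granulosa cells mainly through cyclic AMP and protein kinase A. The labels give no dose, no duration of treatment and no animal, so the time after stimulation is unknown and a group may come from 1 culture. All p-values therefore measure only the spread between these libraries, which may be technical.

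Immediate-early genes are transcribed within minutes of a signal, because the factors that switch them on are already present in the cell and need only be modified. Many of them encode transcription factors that drive a later wave of genes, and their transcripts are short-lived. In granulosa cells the gonadotropins are known to induce several of them as follicles approach ovulation. Of the genes followed here, NR4A1 is an orphan nuclear receptor, EGR1 a zinc-finger factor, ATF3 a leucine-zipper factor of the stress response and MYC a helix-loop-helix factor of cell growth. BTG2 is an antiproliferative protein with no DNA-binding domain of its own, which acts with the CCR4-NOT deadenylase complex, so the name transcription factor does not cover it.

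In the RefSeq annotation of the pig assembly Sscrofa11.1, EGR1 lies on chromosome 2 (140440829 to 140445302) and MYC on chromosome 4 (12455141 to 12460360). ATF3 (130772259 to 130829678) and BTG2 (64033853 to 64037795) both lie on chromosome 9. These 4 rows were matched by gene identifier. The NR4A1 row was an assembled locus with no gene identifier, which the authors named by its likeness to a predicted alpaca protein. The annotation lists an NR4A1 entry on chromosome 5 (17403088 to 17407918) as a pseudogene, and only the symbol connects it to the row. NR4A1 is therefore less securely identified than the other 4. All counts of the 5 rows were whole numbers.

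The libraries held between 16.6 and 22.3 in units of 1e6 fragments, as recovered from the table, and the table took in 6.72% to 8.38% of them. Of the 919 tested genes, 0 differed by less than 0.2 on the log2 scale between sulforaphane and control and 0 between FSH and control, against 298 between sulforaphane and FSH. Sulforaphane replicate 3 stood apart, with 90 of 919 genes more than 1.5 times above both other sulforaphane libraries, against 1 to 6 genes for any other library of any group. EGR1 and BTG2 were among those 90. Of the granulosa markers, 5 of 13 are in the table (AMHR2, FST, INHBA, GJA1 and HSD17B1), and their summed level was 388.0 to 393.7 FPKM in controls, 571 to 709 with sulforaphane and 772 to 805 with FSH. FPKM are fragments per kilobase of transcript, scaled to library depth. The mean log2(FPKM + 1) of these 5 genes was 4.35 to 4.43 in controls and 4.12 to 4.28 with sulforaphane. With FSH it was 5.09 to 5.15. The summed level was thus higher with sulforaphane but the mean log2 level lower, so the 5 genes did not all rise. FSHR and CYP19A1, which define the cell type best, are not analysed here. Smooth muscle markers (6 of 8) summed to 7384 to 7679 FPKM in controls, 2356 to 2576 with sulforaphane and 3121 to 3183 with FSH. Stromal markers (3 of 8) were at 85.4 to 91.6, 44.3 to 52.0 and 56.9 to 60.6 FPKM. The 3 keratins of 6 listed surface epithelium markers were at 153.7 to 156.8, 39.4 to 46.5 and 89.4 to 95.3 FPKM. The 2 of 7 genes listed for theca, CYP11A1 and LHCGR, were at 138.9 to 165.5, 74.9 to 137.5 and 530.3 to 611 FPKM. In bulk libraries these levels cannot be assigned to theca cells rather than to the granulosa cells themselves. KDR, the only 1 of 7 endothelial markers in the table, stayed at or below 1.67 FPKM, and no leukocyte or oocyte marker is analysed here. The part of these marker shifts in the results below was not tested. In such bulk libraries, fewer cells of a type and less RNA per cell cannot be told apart.

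The treatments were each compared with the control to ask which genes they moved, and then with each other. With sulforaphane, EGR1, MYC and BTG2 rose and NR4A1 and ATF3 fell. With FSH, NR4A1, EGR1, MYC and BTG2 rose and ATF3 fell. NR4A1 was thus the 1 gene of the 5 on opposite sides of the control under the treatments, and on library depth the 1 gene that differed when sulforaphane was tested against FSH directly. With TMM factors, median-ratio factors or DESeq2, 4 of the 5 differed there, EGR1, MYC and BTG2 being higher with sulforaphane and NR4A1 lower. Both comparisons used the same 3 control libraries, so they are not independent of each other.

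These counts have to be read against the table. For sulforaphane against control, 3 of the 5 genes were higher and 2 lower by edgeR's quasi-likelihood test, where 34.3% of all 919 tested genes were called higher and 65.3% lower. For FSH against control, 4 were higher and 1 lower, beside 55.3% and 42.7% of all genes. That all 5 passed is therefore close to the background of the table and is no result about these genes. The adjusted p-values against control given below cannot set a gene apart from the other rows either. They were largely fixed in advance if rows were chosen for differing from control, which is not stated. A rank against control is likewise a place among these rows only. For sulforaphane against FSH, 0 were higher and 1 lower, beside 12.9% and 42.8% of all genes. With TMM factors this was 3 higher and 1 lower, where 320 of all genes were called higher and 327 lower. Groups did not overlap for any of the 5 in either comparison with control, which held for 96.0% of all genes with sulforaphane and 98.7% with FSH. They did not overlap for NR4A1 alone in the direct comparison, against 59.4% of all genes.

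How the libraries were scaled moved every one of these differences. With library depth as the scale, the median log2 fold change over all 919 genes was -0.56 for sulforaphane against control, 0.41 for FSH against control and -0.18 for sulforaphane against FSH. TMM factors, which assume that most genes do not change, moved those medians to -0.09, 0.58 and 0.12. On library depth 0 of the 919 genes differed from control by less than 0.2 with either treatment. These rows therefore do not meet that assumption on that scale. Values with TMM factors are given as an alternative, not as a correction of those on library depth. The calls over all genes then went from 315 higher and 600 lower to 317 and 296 for sulforaphane against control, and from 119 and 393 to 320 and 327 for sulforaphane against FSH. Relative to the median of all genes, sulforaphane against control stood at 1.85 for EGR1, 1.42 for MYC, 1.17 for BTG2, -0.68 for ATF3 and -1.49 for NR4A1 on the log2 scale. On the same footing, FSH against control stood at 1.04 for NR4A1, 0.48 for EGR1, 0.36 for MYC, 0.05 for BTG2 and -1.48 for ATF3. The rise of BTG2 with FSH thus differed by only 0.05 from the median of the tested genes. How the rows were chosen is not stated. That median is therefore a reference within these rows and cannot be read as a shift of all genes of the cells.

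**Figure D1:**
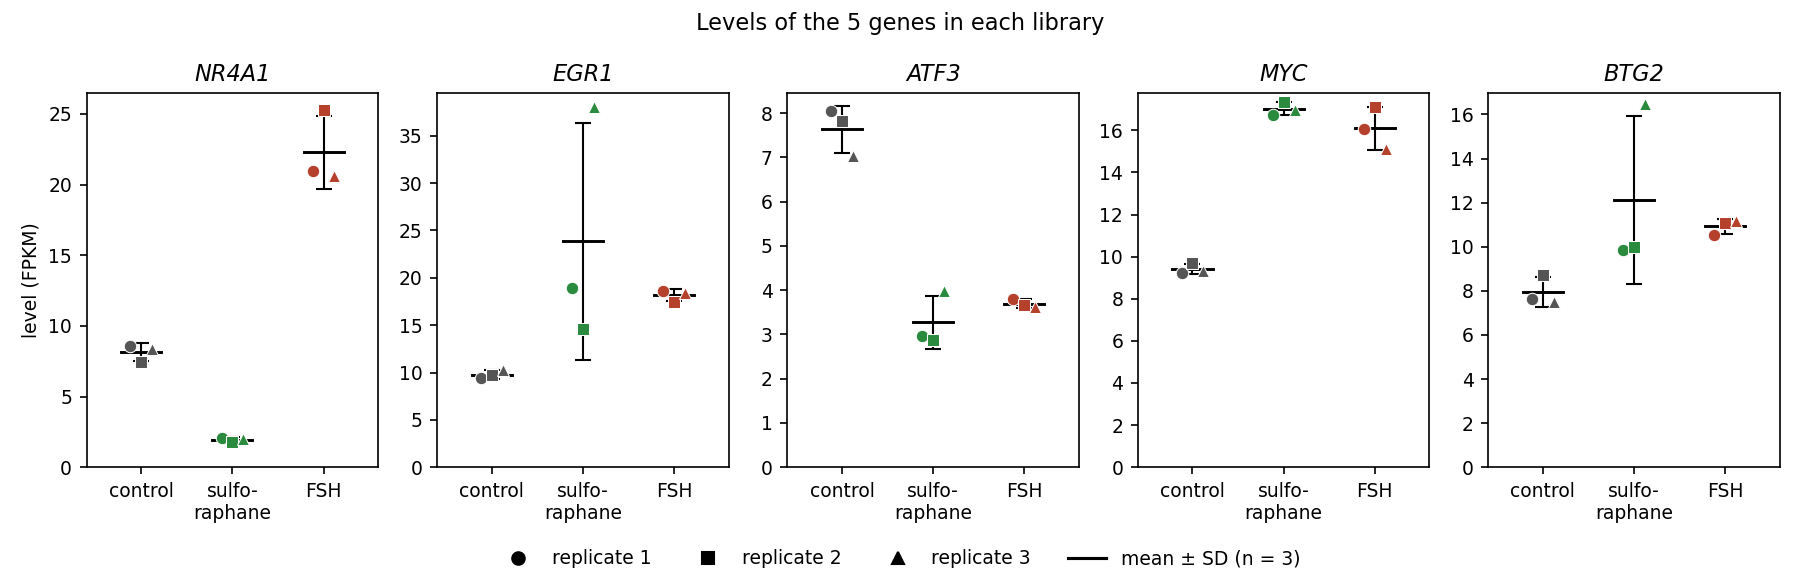
Level of each gene (FPKM, linear axis from 0, 1 panel per gene with its own scale) in the 9 libraries, with symbols for replicate numbers and a bar for mean ± SD (n = 3). NR4A1 lies lowest with sulforaphane and highest with FSH, ATF3 is lower and MYC higher with either treatment, and sulforaphane replicate 3 is the high point of EGR1 (38.0 FPKM) and BTG2 (16.5 FPKM).

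NR4A1, which in the steroid-producing cells of rodents is known to be induced by gonadotropins, had the widest range of the 5 between treatments. Its level in controls was 8.59, 7.43 and 8.40 FPKM in replicates 1, 2 and 3. With sulforaphane it was 2.06, 1.79 and 2.02 FPKM, from 87, 79 and 84 counts. With FSH it was 21.0, 25.3 and 20.6 FPKM. All sulforaphane libraries lay below all controls and all FSH libraries above them, and within each group the values were close together. The mean was 8.14 ± 0.622 FPKM in controls, 1.96 ± 0.146 with sulforaphane and 22.3 ± 2.59 with FSH (SD, n = 3 each). NR4A1 fell 4.15-fold with sulforaphane, a log2 fold change of -2.05 ± 0.13 (SE; edgeR adjusted p = 5.84e-08), the 34th lowest of 919. It rose 2.74-fold with FSH, a log2 fold change of 1.45 ± 0.11 (edgeR adjusted p = 2.79e-07), the 69th highest. Set directly against FSH, sulforaphane left NR4A1 11.4-fold lower, with a 95% interval of 9.39 to 13.8-fold (edgeR adjusted p = 3.36e-10). That difference was the 13th lowest of the 919 genes. With TMM factors the same log2 difference was -3.21, so the direction did not depend on that scaling, and without sulforaphane replicate 3 it was -3.53.

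EGR1, a zinc-finger factor known in rodent granulosa cells as a target of gonadotropin and growth factor signals, was higher with either treatment but uneven with sulforaphane. Controls stood at 9.41, 9.69 and 10.3 FPKM. Sulforaphane libraries stood at 18.95, 14.6 and 38.0 FPKM, and FSH libraries at 18.6, 17.4 and 18.4 FPKM. Every treated library lay above every control. Sulforaphane replicate 3 was 2.27 times the mean of the other sulforaphane libraries, where the median gene was at 1.12 times, and those others bracketed the FSH values. The means were 9.79 ± 0.439 FPKM in controls, 23.9 ± 12.5 with sulforaphane and 18.2 ± 0.626 with FSH. EGR1 rose 2.43-fold with sulforaphane (log2 fold change 1.28 ± 0.26, edgeR adjusted p = 0.000585), and without sulforaphane replicate 3 this log2 change was 0.77 (adjusted p = 3.51e-08). It rose 1.85-fold with FSH (0.89 ± 0.26, adjusted p = 0.00623). Without sulforaphane replicate 3 the rise with FSH was again 0.89 (edgeR adjusted p = 6.71e-10). The same held when only the control and FSH groups were fitted (edgeR adjusted p = 9.41e-10). The difference between the treatments was 0.39 with a 95% interval of -0.16 to 0.95 and did not pass (adjusted p = 0.226). It turned to -0.12 without sulforaphane replicate 3, and without sulforaphane replicate 2 it passed at 0.65 (adjusted p = 0.0204).

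ATF3, a stress-induced factor that in many cell types represses its targets, was lower with either treatment. Controls had 8.04, 7.83 and 7.03 FPKM. With sulforaphane the values were 2.96, 2.88 and 3.97 FPKM, and with FSH they were 3.80, 3.67 and 3.61 FPKM. The treated libraries all lay below all controls, and sulforaphane replicate 3 lay above the FSH libraries while the other sulforaphane libraries lay below them. Means were 7.63 ± 0.533 FPKM in controls, 3.27 ± 0.608 with sulforaphane and 3.69 ± 0.0971 with FSH. ATF3 fell 2.36-fold with sulforaphane (log2 fold change -1.24 ± 0.14, edgeR adjusted p = 6.14e-06) and 2.10-fold with FSH (-1.07 ± 0.14, adjusted p = 2.61e-05). With FSH it was the 79th lowest of 919 genes, in a comparison where the median gene was higher. The log2 difference between the treatments was -0.17 with an interval of -0.49 to 0.15 (adjusted p = 0.374). It passed at -0.34 without sulforaphane replicate 3 (adjusted p = 0.0304) and turned to 0.12 with TMM factors, so no order of the treatments can be read for ATF3. Smooth muscle, stromal and keratin markers were also lower in both treated groups, as given above, and their part in the fall of ATF3 was not tested.

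MYC, a helix-loop-helix factor that promotes growth and entry into the cell cycle, had the smallest coefficient of variation of the 5 in controls (2.71%) and with sulforaphane (1.77%). Controls had 9.22, 9.70 and 9.31 FPKM. With sulforaphane the values were 16.7, 17.3 and 17.0 FPKM, and with FSH 16.1, 17.1 and 15.1 FPKM. All treated libraries lay above all controls, the treatments overlapped, and sulforaphane replicate 3 did not stand out (0.996 times the mean of the other sulforaphane libraries). The means were 9.41 ± 0.255, 17.0 ± 0.302 and 16.1 ± 1.02 FPKM for control, sulforaphane and FSH libraries. MYC rose 1.81-fold with sulforaphane (log2 fold change 0.85 ± 0.08, edgeR adjusted p = 2.16e-06) and 1.71-fold with FSH (0.77 ± 0.08, adjusted p = 6.34e-06). Sulforaphane exceeded FSH by 0.08 on the log2 scale, with an interval of -0.10 to 0.26 (adjusted p = 0.450). The interval bounds the difference at 1.20-fold higher, but with TMM factors the difference was 0.38 and passed (adjusted p = 0.00139).

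BTG2, an antiproliferative co-regulator and a known p53 target, was higher by the smallest amount of the 5 in either comparison with control. Controls had 7.61, 8.71 and 7.49 FPKM. With sulforaphane it had 9.87, 10 and 16.5 FPKM, and with FSH 10.5, 11.07 and 11.2 FPKM. No treated library overlapped the controls. Sulforaphane replicate 3 was 1.66 times the mean of the other sulforaphane libraries, both of which lay below all FSH libraries. Means were 7.94 ± 0.672 FPKM in controls, 12.1 ± 3.79 with sulforaphane and 10.9 ± 0.341 with FSH. With sulforaphane BTG2 rose 1.52-fold (log2 fold change 0.61 ± 0.17, edgeR adjusted p = 0.00469), or by 0.32 on the log2 scale without sulforaphane replicate 3 (adjusted p = 0.00201). The rise with FSH was 1.37-fold (0.46 ± 0.17, adjusted p = 0.0216). That call was lost when control replicate 1, control replicate 3, FSH replicate 2 or FSH replicate 3 was left out. Adjusted p was then 0.05 to 0.0673. The rise passed at 0.46 when only the control and FSH groups were fitted (edgeR adjusted p = 2.69e-05). It also passed at 0.46 without sulforaphane replicate 3 (edgeR adjusted p = 1.44e-05). Sulforaphane and FSH differed by 0.15 with an interval of -0.22 to 0.52 (adjusted p = 0.507), and by -0.14 without sulforaphane replicate 3. With TMM factors EGR1 (0.66, adjusted p = 0.0148) and BTG2 (0.43, adjusted p = 0.0128) were called higher with sulforaphane than with FSH, as MYC was.

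**Figure D2:**
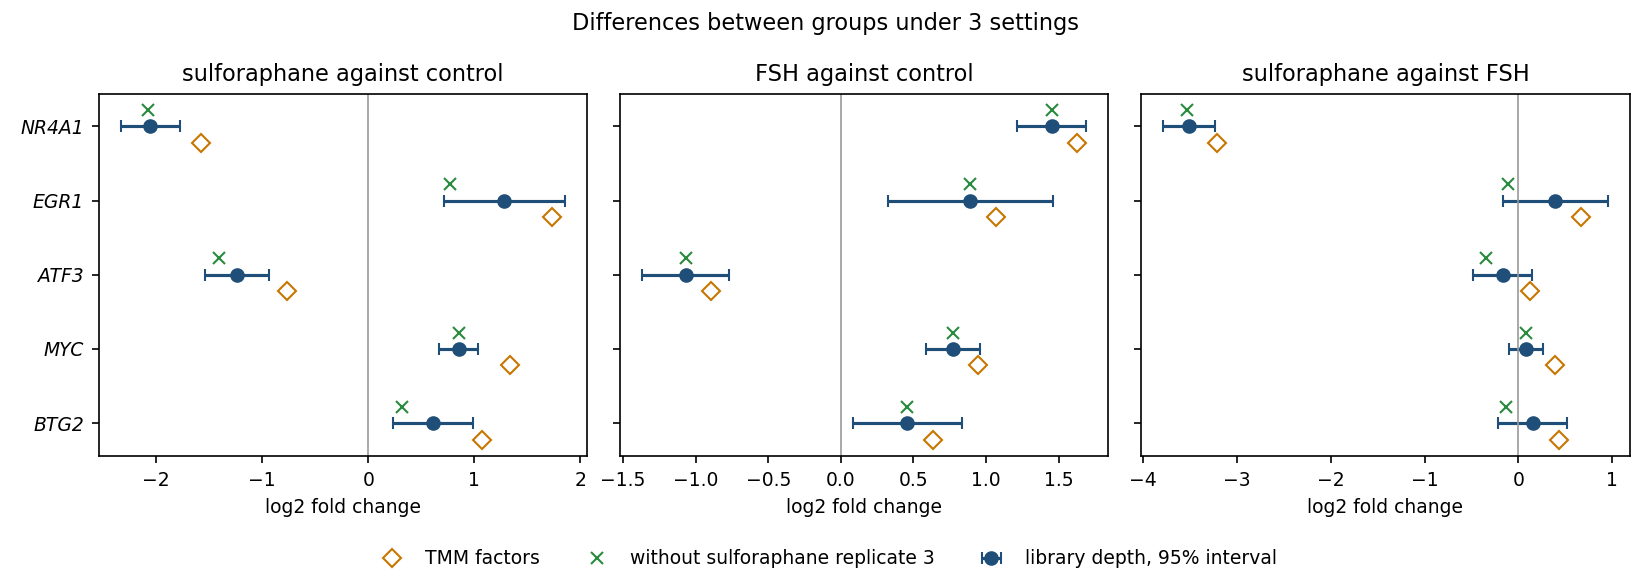
Log2 fold change of the 5 genes in the 3 comparisons (each panel has its own horizontal scale), as the estimate with its 95% interval on library depth (filled circles), with TMM factors (open diamonds) and without sulforaphane replicate 3 (crosses). NR4A1 is the 1 gene whose estimate against FSH is far from 0 (-3.51), and ATF3 changes sign there with TMM factors (0.12).

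The balance between the genes does not depend on how libraries are scaled, because both levels come from the same library. In controls the 5 genes stood close together. EGR1 (9.79 FPKM) and MYC (9.41) overlapped at the top, followed by NR4A1, BTG2 and ATF3, and only the step from MYC to NR4A1 was wider than the spread of the libraries. With FSH the order was NR4A1, EGR1, MYC, BTG2 and ATF3, with no overlap between neighbours. With sulforaphane it was EGR1, MYC, BTG2, ATF3 and NR4A1, with overlap only between EGR1 and MYC. NR4A1 thus had the highest level of the 5 with FSH and the lowest with sulforaphane. Among all tested genes it lay above 77.3% of them with FSH, 59.5% in controls and 29.5% with sulforaphane.

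The log2 ratio of NR4A1 to MYC was -0.21 ± 0.15 in controls, -3.12 ± 0.13 with sulforaphane and 0.46 ± 0.09 with FSH (SD, n = 3 each). The ratio of NR4A1 to ATF3 was 0.09 ± 0.17 in controls, -0.73 ± 0.23 with sulforaphane and 2.59 ± 0.17 with FSH. NR4A1 therefore fell relative to ATF3 with sulforaphane, although ATF3 was itself lower, and rose relative to it with FSH, in every library in each case. The ratio of ATF3 to MYC moved alike under both treatments, from -0.30 ± 0.10 in controls to -2.40 ± 0.26 with sulforaphane and -2.12 ± 0.09 with FSH, and the treated groups overlapped. EGR1 to MYC was 0.06 ± 0.08 in controls and 0.18 ± 0.13 with FSH, but 0.18, -0.25 and 1.16 in the sulforaphane libraries. MYC to BTG2 in those libraries was 0.76, 0.79 and 0.04. Replicate 3 of sulforaphane thus differed from the other 2 in which of the genes were high, not in all 5 alike.

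**Figure D3:**
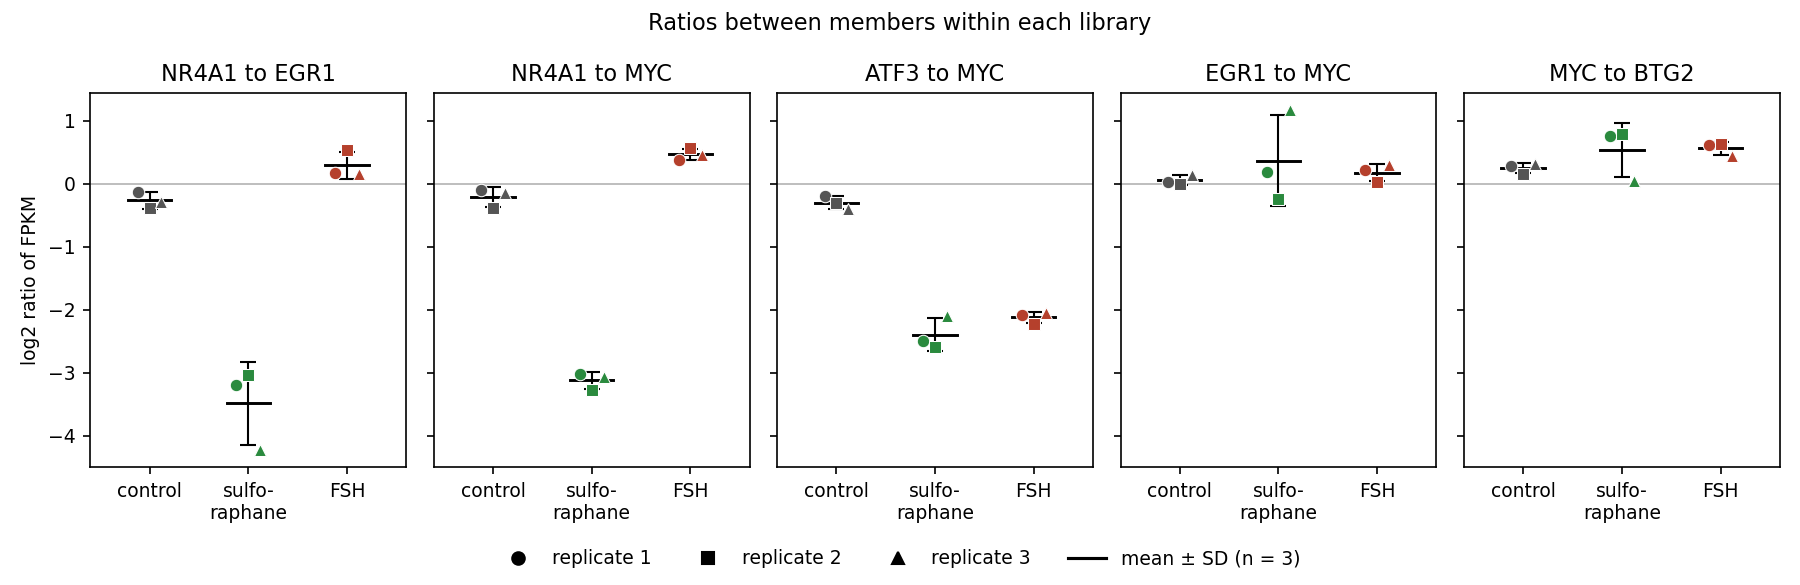
Log2 ratio of FPKM between pairs of genes within each library (common vertical axis, symbols for replicate numbers, bars for mean ± SD, n = 3), for 5 of the 10 pairs. The ratios of NR4A1 to EGR1 and to MYC are below -3 with sulforaphane and above 0 with FSH, ATF3 to MYC is near -2 with either treatment, and sulforaphane replicate 3 is apart in EGR1 to MYC (1.16) and MYC to BTG2 (0.04).

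The table was searched for the 3 genes whose profile over the 9 libraries was closest to each of the 5, by the root-mean-square difference of centred log2 counts scaled to library depth. All profiles share the same libraries and their depth, so closeness is a description. For NR4A1 they were SFRP1, a secreted Wnt antagonist, at 0.30, HTR1D, a serotonin receptor, at 0.32, and SLC6A4, the serotonin transporter, at 0.34, where the median gene was at 1.4. SFRP1 had 1.44 ± 0.287 FPKM in controls, 0.360 ± 0.07 with sulforaphane and 2.95 ± 0.144 with FSH. SLC6A4 had 1.18 ± 0.142, 0.473 ± 0.0764 and 4.18 ± 0.553 FPKM. These are low levels, and on log2(FPKM + 1) none of the 3 remained and NOV, NREP and LDHD were closest. The 3 closest genes of NR4A1 thus depended on the scale.

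For EGR1 the closest were ASIC1, an acid-sensing ion channel, GSTA4, a glutathione transferase, and AHR, the aryl hydrocarbon receptor, at 0.24 to 0.25 with the median gene at 0.86. GSTA4 shared the high sulforaphane replicate 3, with 72.3, 75.6 and 112.7 FPKM in that group, and it was the 1 of the 3 that log2(FPKM + 1) also gave. For ATF3 they were ATOH8, a helix-loop-helix factor, GEM, a Ras-related GTPase that is itself an immediate-early gene, and CD34, a surface sialomucin, at 0.10 to 0.12 with the median gene at 0.73. ATOH8, which both scales gave, had 6.17 ± 0.376 FPKM in controls, 2.61 ± 0.617 with sulforaphane and 2.73 ± 0.23 with FSH. For MYC they were ENTPD7, a nucleotidase with some counts that are not whole, TRPS1, a GATA-type repressor, and MPI, mannose phosphate isomerase, at 0.07 to 0.10 with the median gene at 0.70. For BTG2 they were BNIP3L, a mitophagy receptor, SCCPDH and LOC100523684, at 0.07 to 0.09 with the median gene at 0.63. BNIP3L stood at 27.9, 29.7 and 47.7 FPKM in the sulforaphane libraries, high in replicate 3 as BTG2 was.

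Other genes of the immediate-early class were read from a list of 70, of which 12 are in the table and 11 were tested (EREG, an EGF-like growth factor, was too low). With sulforaphane 6 were higher and 5 lower (6 and 3 with TMM factors), and with FSH 6 were higher, 4 lower and 1 did not pass. Of all genes, 34.3% were higher and 65.3% lower with sulforaphane, and 55.3% and 42.7% with FSH. The list's median log2 fold change was 0.35 with sulforaphane and 0.38 with FSH, beside -0.56 and 0.41 for all genes. For sulforaphane against FSH the list median was -0.03, beside -0.18 for all genes. There 4 were higher, 2 lower and 5 did not pass, where 12.9% of all genes were higher and 42.8% lower. With TMM factors that count was 6 higher and 2 lower, and without sulforaphane replicate 3 it was 3 higher and 5 lower.

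Among the AP-1 subunits, JUNB moved in opposite directions under the treatments, as NR4A1 did. JUNB stood at 11.7, 12.7 and 11.6 FPKM in controls, 7.46, 6.03 and 9.42 with sulforaphane and 20.8, 22.3 and 21.2 with FSH, with no overlap. It fell by 0.66 with sulforaphane and rose by 0.83 with FSH on the log2 scale (edgeR adjusted p = 0.000562 and 0.000114), and the fall was -0.19 and did not pass with TMM factors. Sulforaphane against FSH was -1.49 ± 0.13 (adjusted p = 6.67e-07), and was called with TMM factors too. FOSL1, which pairs with JUN proteins, rose with either treatment. It had 18.3 ± 1.68 FPKM in controls and 26.0 ± 1.93 with FSH, and was 0.80 higher on the log2 scale with sulforaphane than with FSH (adjusted p = 0.000575). Its sulforaphane values were 47.55, 55.0 and 33.2 FPKM, so replicate 3 was here the low one. FOSL2 was the most abundant of the group at 130.5 ± 13.9 FPKM in controls, 170.7 ± 26.4 with sulforaphane and 174.3 ± 3.22 with FSH. It rose by 0.35 and 0.38, and the rise with sulforaphane was 0.18 without its replicate 3. MAFF, a small MAF protein, rose from 4.22 ± 0.371 FPKM to 5.77 ± 1.7 with sulforaphane and 6.98 ± 0.276 with FSH. Its call with sulforaphane was lost without sulforaphane replicate 3 (0.19), control replicate 2 (0.39) or control replicate 3 (0.45).

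GADD45B, a growth arrest protein, GEM and SNAI2, a zinc-finger repressor, were lower with either treatment, as ATF3 was. GADD45B went from 15.2 ± 1.22 FPKM in controls to 5.33 ± 0.587 with sulforaphane and 9.26 ± 0.52 with FSH, log2 fold changes of -1.51 ± 0.12 and -0.71 ± 0.11. GEM went from 4.36 ± 0.227 to 1.88 ± 0.13 and 2.31 ± 0.0458 FPKM (-1.22 ± 0.13 and -0.93 ± 0.12). SNAI2 had 1.83, 2 and 5.33 FPKM in the sulforaphane libraries, so replicate 3 stood nearer to the controls at 7.66 ± 0.774 FPKM than the others did. Its log2 fold change was -1.33 ± 0.31 with sulforaphane, or -2.0 without sulforaphane replicate 3, and -0.99 ± 0.30 with FSH. KLF6, a zinc-finger factor, had 21.4 ± 0.891, 15.9 ± 1.91 and 13.5 ± 0.462 FPKM. It fell by 0.67 with FSH, while its fall of 0.43 with sulforaphane turned to 0.04 with TMM factors. PHLDA1 and TIPARP, a mono-ADP-ribosyltransferase, rose with either treatment, by 0.63 and 0.68 with sulforaphane and by 0.54 and 0.42 with FSH. HBEGF, a ligand of the EGF receptor, rose by 0.50 with sulforaphane and stood at -0.39 with FSH (adjusted p = 0.0652). Its rise with sulforaphane was lost without control replicate 2 (0.41) or sulforaphane replicate 2 (0.30) and by limma on log2(FPKM + 1) (0.38, adjusted p = 0.0506). HBEGF was 0.89 ± 0.19 higher with sulforaphane than with FSH (adjusted p = 0.00106).

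**Figure D4:**
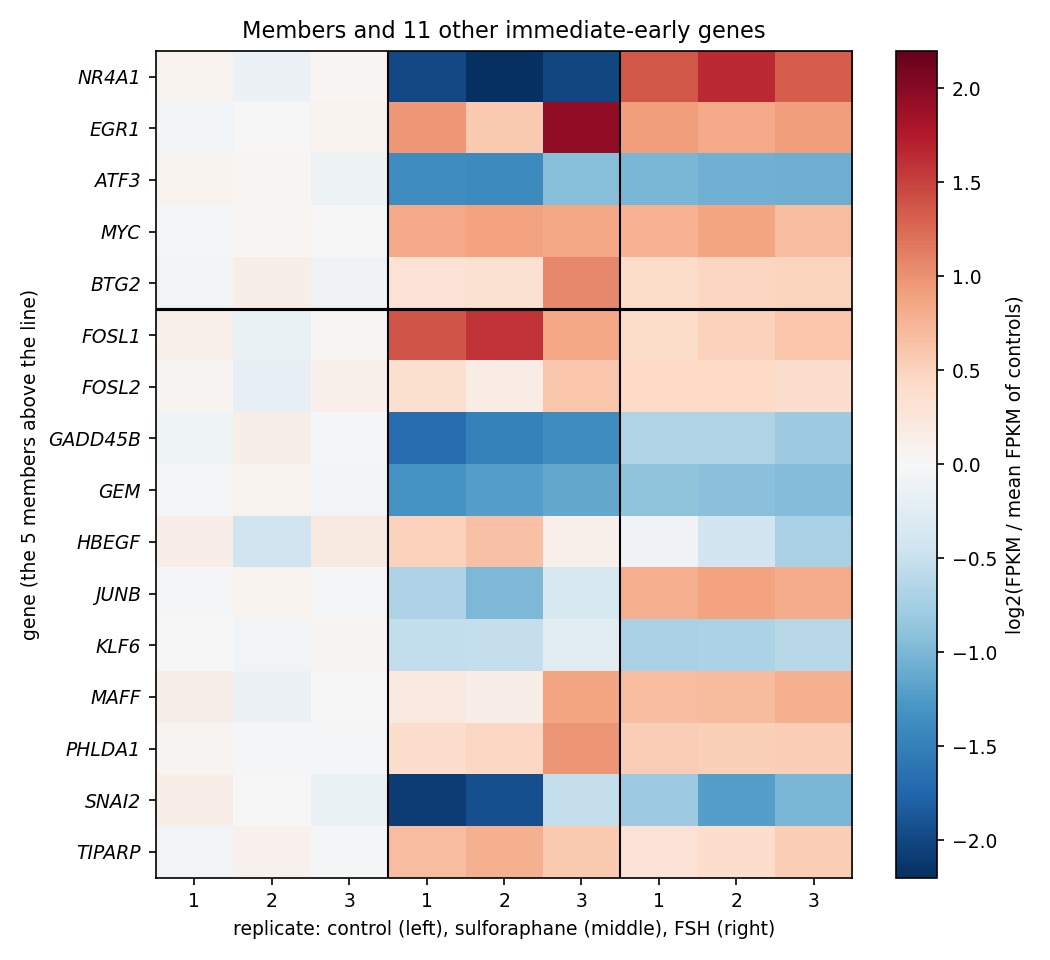
Log2 ratio of FPKM to the control mean for the 5 genes (above the line) and 11 other immediate-early genes in each library (red higher, blue lower). NR4A1 and JUNB are blue with sulforaphane and red with FSH, ATF3, GADD45B, GEM and SNAI2 are blue with both, and sulforaphane replicate 3 differs from replicates 1 and 2 in EGR1, BTG2, MAFF and SNAI2.

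Genes upstream of the 5 are few in the table. Of 41 listed genes of cyclic AMP and protein kinase A signalling, 6 are in the table and 5 were tested. With sulforaphane 2 were higher and 3 lower (2 and 2 with TMM factors), and with FSH 3 were higher and 2 lower. Of all genes, 34.3% were higher and 65.3% lower with sulforaphane, and 55.3% and 42.7% with FSH. For sulforaphane against FSH 1 was higher, 3 were lower and 1 did not pass, beside 12.9% higher and 42.8% lower of all genes. The list medians against control, -0.64 with sulforaphane and 0.39 with FSH, were near the -0.56 and 0.41 of all genes. PDE3B and CREB3L2 are described because they had the smallest adjusted p of this list between the treatments, and the genes named below from other lists were picked in the same way. PDE3B, which degrades cyclic AMP, had 1.17 ± 0.18 FPKM in controls, 0.543 ± 0.0751 with sulforaphane and 1.93 ± 0.106 with FSH, so it lay on opposite sides of the control. Its log2 fold changes were -1.10 ± 0.16 and 0.72 ± 0.14. CREB3L2, a membrane-bound factor related to CREB, had 24.2 ± 0.649, 15.6 ± 3.53 and 37.2 ± 0.945 FPKM, and its fall of 0.64 with sulforaphane was -0.17 and did not pass with TMM factors. None of the other tested genes of the list fell with sulforaphane and rose with FSH. PDE8B, with some counts that are not whole, moved the opposite way, at 0.47 with sulforaphane, -0.50 with FSH and 0.97 for sulforaphane against FSH. PKIG was lower and PRKACB higher than control with both treatments. Of 19 listed feedback inhibitors of the MAP kinases 1 was tested, SPRED2, which rose by 0.57 with sulforaphane and 0.58 with FSH. Of 29 listed partners of the 5 proteins 1 was tested, MXI1, which competes with MYC for its partner MAX. MXI1 had 2.44 ± 0.284 FPKM in controls, 2.38, 2.79 and 5.63 with sulforaphane and 3.73 ± 0.144 with FSH. It rose by 0.61 with FSH (adjusted p = 0.0358), a call that was lost without any 1 of the FSH libraries, control replicate 1 or control replicate 3 (adjusted p 0.0577 to 0.0977), and stood at 0.55 with sulforaphane (adjusted p = 0.0554). That value passed with TMM factors (adjusted p = 0.00121).

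Known targets of MYC, and genes known to share a regulator with ATF3 or BTG2, were read beside these genes. The integrated stress response induces ATF3 together with amino acid genes through ATF4. All 8 tested genes of 31 listed for it rose with sulforaphane, where 34.3% of all genes were higher. With FSH 7 rose and 1 did not pass, where 55.3% of all genes were higher. ATF3 fell with both. The list's median log2 fold change was 1.25 with sulforaphane and 0.67 with FSH, beside -0.56 and 0.41 for all genes. Among the 8, SLC7A5 had 42.0 FPKM in sulforaphane replicate 3, within its controls (40.3 to 43.0 FPKM). For sulforaphane against FSH 4 of the 8 were higher, 1 was lower and 3 did not pass, beside 12.9% higher and 42.8% lower of all genes. CTH, of cysteine synthesis, went from 3.63 ± 0.387 FPKM to 17.3 ± 3.82 with sulforaphane and 7.38 ± 0.87 with FSH, 2.25 ± 0.17 and 1.02 ± 0.17 on the log2 scale. SLC7A11, the cystine importer and also an NRF2 target, rose by 3.72 ± 0.21 with sulforaphane and stood at 0.50 with FSH (adjusted p = 0.0530).

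Of 38 listed MYC target genes 7 were tested. With sulforaphane 3 were higher and 4 lower (3 and 0 with TMM factors), and with FSH all 7 were higher, where 34.3% and 55.3% of all genes were higher. The list medians of -0.47 and 0.47 were near the -0.56 and 0.41 of all genes. MYC itself rose by 0.85 and 0.77. For sulforaphane against FSH 1 was higher, 4 were lower and 2 did not pass, with a median of -0.94 beside -0.18 for all genes. Of all genes, 12.9% were higher and 42.8% lower there. E2F1, a cell cycle factor, had 13.4 ± 0.698 FPKM in controls, 9.66 ± 1.87 with sulforaphane and 18.6 ± 0.938 with FSH. Its log2 difference between the treatments was -0.94 ± 0.12 (adjusted p = 1.72e-05). Its fall of 0.47 with sulforaphane turned to 0.02 with TMM factors. MCM7, a replicative helicase subunit with some counts that are not whole, fell by 0.51 with sulforaphane, or 0.33 without sulforaphane replicate 3. With TMM factors that fall was -0.02 and did not pass. MCM7 rose by 0.48 with FSH. Of the targets not picked, MCM2 and MCM5 were also lower with sulforaphane, though not called lower with TMM factors. TFRC, ENO1 and SLC16A1 rose with sulforaphane, as MYC did, by 0.83, 0.60 and 0.44 on the log2 scale.

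BTG2 is known as a p53 target, and of 28 other listed p53 targets 5 were tested. With sulforaphane 0 were higher and 5 lower (0 and 2 with TMM factors), where 65.3% of all genes were lower. The list's median log2 fold change of -0.63 was close to the -0.56 of all genes. BTG2 itself rose. With FSH 2 were higher, 2 lower and 1 did not pass, and for sulforaphane against FSH 1 was higher, 3 were lower and 1 did not pass. Of all genes, 55.3% were higher and 42.7% lower with FSH, and 12.9% and 42.8% for sulforaphane against FSH. FDXR, ferredoxin reductase, which also serves steroid synthesis, had 12.4 ± 0.762, 8.58 ± 0.666 and 28.0 ± 1.26 FPKM for control, sulforaphane and FSH libraries. DDB2, of DNA repair, had 7.78 ± 0.616, 4.23 ± 0.912 and 12.5 ± 0.756 FPKM. Both lay on opposite sides of the control, at -1.69 ± 0.10 and -1.51 ± 0.13 for sulforaphane against FSH on the log2 scale, the difference for which they were picked. The other 3 did not share this pattern. PHLDA3 was lower than control with both treatments and 0.89 higher with sulforaphane than with FSH, although its fall with sulforaphane turned to 0.005 with TMM factors. GADD45A was lower with both treatments, and BBC3 stood at -0.18 between the treatments (adjusted p = 0.531). With TMM factors the fall of FDXR with sulforaphane was -0.06 and did not pass.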

How the data were processed

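The labels' protocols describe oligo(dT) enrichment of messenger RNA, fragmentation and Illumina HiSeq sequencing and mention no strand-specific step, so reads of a gene and of an antisense partner cannot be told apart. The submitters' processing notes name the build Sscrofa11.1 and, without roles, StringTie 1.3.1, HISAT2, Bowtie2 2.2.8, fastp, edgeR and DESeq2. The deposited table holds FPKM for every gene and library, per the file headers. Beside each FPKM value the authors deposited a read count, treated here as an estimated count because 143 of 1081 rows hold one that is not whole. Neither the counting tool nor the choice of rows is stated: both are not given in the sources used here.

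Members and gene lists were chosen with earlier results of these data known. Estimated counts were rounded. The ratio of count to FPKM gave the library depths (mean 18.7 in units of 1e6 fragments). Relative depth rested on 354 genes that reached 100 counts and 5 FPKM in all libraries, and absolute depth on 10 genes whose ratio to the annotated span was equal, within 0.1%, at its maximum. The 919 genes that reached 1 FPKM in 3 or more libraries were tested in 1 fit of 9 libraries with 3 group means by edgeR 4.0.16 in R 4.3.3 (quasi-likelihood test, Benjamini-Hochberg adjustment over 919 genes, threshold 0.05), after a test on simulated data. The SE of a log2 fold change is its size over the square root of F. The biological coefficient of variation was 10.9%. Beside the 5 genes, the text names the 3 closest profiles of each, the tested immediate-early genes, and from each other list the 2 genes with the smallest adjusted p for sulforaphane against FSH. Alternatives were TMM and median-ratio factors, DESeq2 1.42.0, limma 3.58.1 on log2 FPKM with several pseudocounts, other filters, pairwise fits, a replicate block and each library left out.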

Additional observations from a re-analysis of the deposited data

How the results depend on the processing

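Over 282 alternative values of single genes, 262 kept their direction and side of the threshold, 4 lost a call, 11 gained one and 5 turned. Leaving out a library of the group not compared acts on the spread and hardly on the estimate. NR4A1 with sulforaphane against control, for example, stayed at -2.05 without FSH replicate 1. The direction could hardly turn in such settings, so the count of 262 overstates how far it was put to the test. All of the 4 lost calls were BTG2 with FSH when a library was left out. The calls of NR4A1, EGR1, ATF3 and MYC against control, of BTG2 with sulforaphane, and of NR4A1 against FSH, held under every alternative that could be fitted. ATF3 could not be fitted with a mean FPKM of at least 5. The number of the 5 genes called for sulforaphane against FSH was 1 on library depth. It was 4 with TMM factors, 4 with median-ratio factors and 4 with DESeq2, and 1 to 2 when a library was left out. In that comparison ATF3 turned from -0.17 to 0.12 with TMM factors, 0.20 with median-ratio factors and 0.20 with DESeq2. This follows the median of all genes, which moved by a similar amount. Leaving out a library gave EGR1 from -0.12 to 0.65 and BTG2 from -0.14 to 0.28 there, with the lowest values without sulforaphane replicate 3. Same-numbered libraries of different groups did not clearly deviate together (2 of 9 correlations above 0.1, range -0.17 to 0.21). These values show no pairing by number but cannot exclude a weak one. With a replicate block, EGR1 against control was 1.20 with sulforaphane and the counts of called genes stayed at 5, 5 and 1. NR4A1 and ATF3 with sulforaphane rest on the fewest counts (79 to 147 per library), but the largest SEs against control were those of EGR1 (0.26) and BTG2 (0.17), which were uneven between the sulforaphane libraries.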
